A study of Mus musculus with 586 samples.

Results

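The genes described here are 7 feedback genes of FGF-ERK signalling, namely Dusp6, Spry1, Spry2, Spry4, Etv4, Etv5 and Spred1, followed through the gastrulating mouse embryo. They were chosen by name and not by a cut on their values, although earlier results of these data were known. All 7 were present among the 23361 genes in each of the 18 deposited tables, 1 table per embryo. RNA had been sequenced from small pieces that were cut by laser from cryosections of C57BL/6 embryos (Geo-seq), so that each library holds the RNA of a few cells of known stage, region and section. Of 586 samples, 473 could be tied to a column of values through their labels and were used.

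The libraries came from E5.5 (22 libraries from 2 embryos), E6.0 (22 from 2), E6.5 (109 from 6), E7.0 (101 from 2) and E7.5 (219 from 6). No group carried a mutation or a treatment, and the comparisons are between regions of the same embryo and between stages. The published atlas of these stages gives the meaning of the region codes: P and A are the posterior and anterior epiblast (ectoderm at E7.5), L and R its left and right sides, M the mesoderm split into posterior (MP) and anterior (MA) mesoderm at E7.5, EP and EA the posterior and anterior endoderm, and section 1 is the most distal. The labels do not give sex or litter, and several region codes at E7.0 and E7.5 rest on 2 embryos. Because each library is bulk RNA of a small piece, fewer cells of a type and less RNA per cell cannot be told apart in any value below.

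Fibroblast growth factors bind receptor tyrosine kinases and activate the Ras, Raf, MEK and ERK kinases, and ERK in turn induces genes that dampen or relay the same signal. Dusp6 is a cytoplasmic phosphatase that removes phosphate from ERK, the Sprouty proteins (Spry1, Spry2, Spry4) and Spred1 inhibit Ras and Raf activation, and Etv4 and Etv5 are ETS transcription factors induced by FGF. In the mouse gastrula FGF8 and FGF4 from the primitive streak are required for cells to leave the streak and form mesoderm, and transcripts of the feedback genes are widely used as readouts of FGF-ERK activity.

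From E6.5 onwards marker genes followed the region labels. At E5.5 and E6.0 none of the 3 genes T, Mixl1 and Pou3f1 passed for P minus A, so these labels rest on no marker there. T, the streak transcription factor, was higher in P than in A at E6.5, E7.0 and E7.5 by 2.43, 5.94 and 6.38 on the log2 scale, and was listed at 0 in every A and P library of E5.5. Mixl1, another streak gene, was higher in P by 3.36, 5.72 and 6.07 at those stages, while Pou3f1, an epiblast and anterior ectoderm factor, was lower in P by -1.10, -2.69 and -2.64. Ttr, a visceral endoderm product, was higher in endoderm than in epiblast by 6.06, 6.37 and 6.24. Depth in reads was unknown; the number of genes at 1 FPKM or more (fragments per kilobase of transcript, scaled to library depth) ranged from 2683 to 11319 per library, with a median of 8949. Detection was lowest in embryo 1 of E5.5 (median 5739 genes), embryo 4 of E7.5 (6555) and embryo 5 of E6.5 (6774), and in 4 libraries, all of E7.5, a single small RNA gene held more than 50% of the FPKM sum.

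All 7 genes were detected widely, at different levels. Spry2 was the most abundant, with a median of 12.8 FPKM over the 473 libraries and at least 1 FPKM in 91.5% of them, followed by Etv5 (10.4 FPKM, 90.3%) and Dusp6 (7.27 FPKM, 82.0%). Etv4 had a median of 2.93 FPKM, Spry4 of 2.52 FPKM, Spred1 of 1.66 FPKM and Spry1 of 1.43 FPKM, and Spry1 reached 1 FPKM in the fewest libraries (58.8%). Single libraries peaked far above these medians, at 230.3 FPKM for Spry2 in P of E7.0, 79.8 FPKM for Etv5 and 63.4 FPKM for Dusp6, both in A of E5.5, and 24.2 FPKM for Spry4 in EP of E7.0. Etv4 (56.4 FPKM) and Spry1 (21.5 FPKM) peaked in A of E5.5, and Spred1 (14.3 FPKM) in EP of E7.0.

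The genes fell into different orders over the 25 stage and region groups that hold at least 2 embryos, pieces labelled A/P or EA/EP included, ranked here by mean FPKM over embryos. Dusp6 was highest in P of E7.0 (27.1 ± 14.5 FPKM, SD, n = 2), E7.5 (25.8 ± 10.8, n = 4) and E6.5 (17.6 ± 4.03, n = 6), and lowest in A of E7.5 (2.63 ± 2.02, n = 6), A/P of E5.5 (2.20 ± 0.676, n = 2) and EA of E6.5 (1.80 ± 0.267, n = 2). Spry2, Etv4 and Spred1 also had P of E7.5 at the top, at 76.6 ± 50.4, 10.5 ± 4.38 and 5.61 ± 2.63 FPKM (SD, n = 4 each). Spry4 headed its order in P of E7.0 (9.74 ± 8.52 FPKM, n = 2) and had its lowest level in A of E7.5 (0.458 ± 0.277 FPKM, n = 6). For all 7 genes, neighbouring groups in these orders differed by no more than the larger of their SDs.

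Etv5 and Spry1 did not share that order. Etv5 was highest in A of E6.0 (34.7 ± 14.7 FPKM, n = 2), A/P of E6.0 (30.8 ± 4.30, n = 2) and A of E6.5 (28.9 ± 7.65, n = 6), and its lowest group was again A of E7.5 (5.16 ± 5.57, n = 6). Spry1 was highest in A/P of E6.0 (5.91 ± 4.12 FPKM, n = 2), A/P of E5.5 (5.17 ± 4.95, n = 2) and A of E5.5 (4.57 ± 1.13, n = 2), and its lowest groups were P and MP of E7.5, at 0.888 ± 0.435 (n = 4) and 0.871 ± 0.132 FPKM (n = 2). P of E7.5, a group at or near the top for 5 genes, was therefore near the bottom for Spry1.

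**Figure D1:**
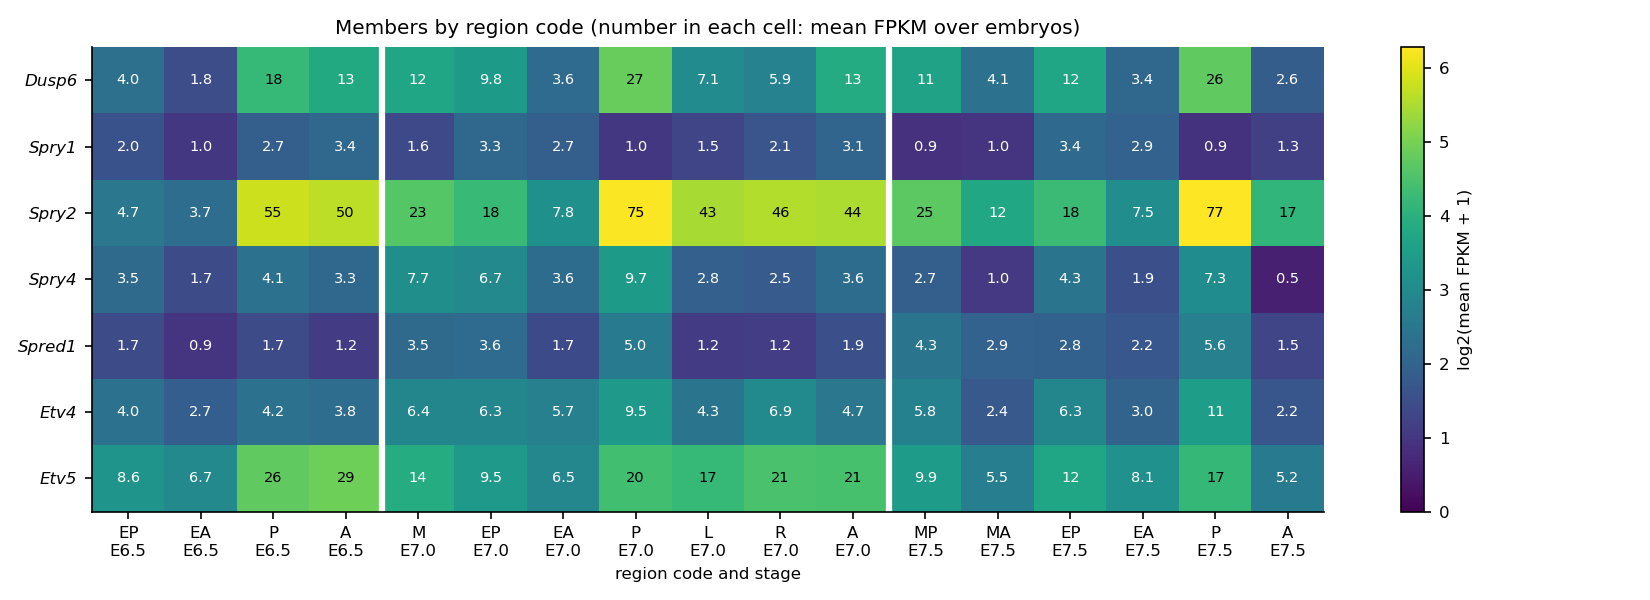
Mean FPKM of the 7 genes by region code at E6.5, E7.0 and E7.5, with colour for log2(mean FPKM + 1) and the mean FPKM printed in each cell. Dusp6, Spry2, Spry4 and Etv4 are low in A of E7.5 (Spry4 0.458 FPKM) and high in P, whereas Spry1 is below 1 FPKM in P, MP and MA of E7.5.

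The 250 bases before the annotated start were read from RefSeq (GRCm38.p6) for the members in its promoter table. The reason was that 6 of the genes were higher in P than in A at E7.5, whereas Spry1 did not pass. Windows were read for 5 of the 7 genes, with an additional start for Etv5, which gave 6 windows. Etv4 had no entry in that table, and the promoter of Spry4 is not reported here. ETS factors, the family of Etv4 and Etv5, bind sites with the core GGAA, and the windows were searched for it on both strands. Shown are Dusp6 (chr10:99262981-99263230, plus strand) and Spry2 (chr14:105896820-105897069, minus strand), the members with the largest differences between P and A at E7.5, and Spry1 (chr3:37639697-37639946, plus strand), which had none; capitals mark GGAA or its reverse complement TTCC, and each runs 5′ to 3′ on the gene's strand.
Dusp6: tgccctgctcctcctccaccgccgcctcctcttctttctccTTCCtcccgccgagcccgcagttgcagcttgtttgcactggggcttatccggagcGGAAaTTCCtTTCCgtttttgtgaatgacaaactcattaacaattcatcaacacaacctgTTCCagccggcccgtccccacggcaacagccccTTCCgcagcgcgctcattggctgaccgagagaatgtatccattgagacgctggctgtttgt
Spry2: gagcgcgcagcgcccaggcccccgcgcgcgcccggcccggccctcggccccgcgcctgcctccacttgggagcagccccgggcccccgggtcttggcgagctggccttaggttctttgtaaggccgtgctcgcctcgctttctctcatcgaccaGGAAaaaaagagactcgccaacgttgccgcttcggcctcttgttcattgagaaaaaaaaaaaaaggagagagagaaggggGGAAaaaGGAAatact
Spry1: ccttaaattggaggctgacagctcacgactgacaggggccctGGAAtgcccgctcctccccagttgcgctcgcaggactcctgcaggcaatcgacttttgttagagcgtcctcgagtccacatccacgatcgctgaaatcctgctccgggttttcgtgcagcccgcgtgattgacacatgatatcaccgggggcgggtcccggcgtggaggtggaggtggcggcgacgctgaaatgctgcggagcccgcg
The core occurred 6 times in the Dusp6 window, 3 times in Spry2 and 1 time in Spry1, 4 times in Spred1, and 0 and 4 times in the Etv5 windows. It is a short motif, present in 93.45% of 32851 mouse promoter windows of the same length, so its presence sets no window apart. The longer CCGGAA, which overlaps it, was in 12.03% of those windows and in 0 of the 6 shown or counted here. Dusp6 itself lies at chr10:99263231-99267489, Spry2 at chr14:105891947-105896819 and Spry1 at chr3:37639947-37644598 (GRCm38, GENCODE vM21).

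Before gastrulation and at its onset, none of the 7 genes passed the test of P against A. Differences were taken section by section within each embryo on log2(FPKM + 1) and tested over all 11438 genes with limma and Benjamini-Hochberg adjustment at 0.05, the embryo being the replicate. At E5.5 (2 embryos) 0 of 7 genes passed where 15.1% of all genes did, and 2 had an unadjusted p under 0.05. Dusp6 had 3.97 and 9.93 FPKM in P of the 2 embryos, against 6.27 and 21.4 FPKM in A (difference -0.74 ± 0.26, adjusted p = 0.064). At E6.0 (2 embryos) 0 of 7 passed, 1 at an unadjusted p under 0.05, and 0% of all genes did.

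At E6.5, when T was already higher in P, 0 of 7 genes passed in 6 embryos, against 0.726% of all genes, and only Dusp6 had an unadjusted p under 0.05. Dusp6 had 21.6, 17.6, 18.5, 20.5, 10.1 and 17.2 FPKM in P of embryos 1 to 6, against 16.3, 11.8, 12.5, 14.4, 9.04 and 14.4 FPKM in A. P was above A in 6 of 6 embryos while the groups overlapped between embryos, and the difference of 0.34 ± 0.15 had an adjusted p of 0.92. Spry4 (0.22 ± 0.17) and Spred1 (0.28 ± 0.13) were likewise higher in P in 6 of 6 embryos without passing, and Spry1 was lower in P in 5 of 6 (-0.32 ± 0.15). Etv5, at 25.7 ± 7.39 FPKM in P and 28.9 ± 7.65 FPKM in A (SD, n = 6 each), was higher in P in 2 of 6 embryos, and Spry2, at 54.7 FPKM in P and 49.6 FPKM in A, in 5 of 6 (0.06 ± 0.14).

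At E7.0 the genes began to part, with 4 of 7 higher and 1 lower in P than in A. Of all genes 2.92% passed in either direction, and 1.63% higher. Only 7 sections of 2 embryos had both regions. Differences were taken over these, whereas the FPKM given per embryo at E7.0 are means over all sections of a region. Dusp6 was at 16.9 and 37.4 FPKM in P of the 2 embryos, against 9.27 and 17.6 FPKM in A, and rose by 1.19 ± 0.26 in P (adjusted p = 0.015). Spred1, an inhibitor of Ras and Raf, was at 2.19 and 7.88 FPKM in P, against 0.545 and 3.23 FPKM in A (1.34 ± 0.23, adjusted p = 0.0028). Each embryo had more in P than in A, but A of embryo 2 lay above P of embryo 1 for both genes.

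Spry4 (1.22 ± 0.30, adjusted p = 0.033) and Etv4 (1.21 ± 0.27, adjusted p = 0.019) also rose in P at E7.0, each in 2 of 2 embryos. Spry1 fell, with 0.573 and 1.46 FPKM in P of the 2 embryos against 3.10 and 3.17 FPKM in A (-1.36 ± 0.27, adjusted p = 0.0067), the groups not overlapping. Spry2 (7.86 and 141.8 FPKM in P, against 6.80 and 81.9 FPKM in A) and Etv5 (9.77 and 29.9 FPKM in P, against 12.7 and 29.1 FPKM in A) did not pass, at adjusted p of 0.22 and 0.90. The embryos differed more from each other than the regions did, most of all for Spry2. These 5 calls shared their estimate of the spread with the other stages, and a fit of E7.0 alone kept that of Dusp6 and lost the other 4.

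At E7.5 the genes were far higher in P than in A, apart from Spry1. Dusp6 had 28.5, 10.6, 28.3 and 35.7 FPKM in P of embryos 3 to 6, against 4.88, 3.46, 2.81, 0.0443, 0.401 and 4.18 FPKM in A of embryos 1 to 6. The groups did not overlap, and the embryo with the lowest P, embryo 4, also had the lowest A. The FPKM given per embryo at E7.5 are means over all sections of a region. In A of embryos 4 to 6 these were only sections 3, 6 and 9. Over the 19 sections of 4 embryos that had both regions, Dusp6 averaged 23.7 FPKM in P and 1.86 FPKM in A, a difference of 3.40 ± 0.18 (limma adjusted p = 9.56e-10). Of the 7 genes 6 passed, all higher in P in 4 of 4 embryos, where 13.9% of all genes passed and 10.4% were higher. The median difference of the 7 was 2.28, beside 0.15 over all genes tested.

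Spry2, the most abundant Sprouty gene, had 143, 22.7, 59.3 and 81.5 FPKM in P, against 37.5, 11.1, 18.2, 1.49, 3.03 and 28.0 FPKM in A. Its P and A values overlapped between embryos, because P of embryo 4 lay below A of embryos 1 and 6, but within embryos the difference was 2.82 ± 0.17 (adjusted p = 3.55e-09). Spry4 had 8.48, 3.32, 7.83 and 9.72 FPKM in P, against 0.665, 0.432, 0.846, 0.188, 0.104 and 0.514 FPKM in A, a gap with no overlap (2.34 ± 0.21, adjusted p = 4.44e-07). In linear terms Spry4 had the largest ratio of P to A over matched sections, 16.1, and Dusp6 the next, 12.8.

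Among the ETS factors, Etv4 had 12.5, 4.90, 9.45 and 15.2 FPKM in P, against 3.57, 3.06, 0.999, 0, 0.448 and 4.99 FPKM in A (2.28 ± 0.19, adjusted p = 2.11e-07). Etv5 had 18.1, 11.1, 16.1 and 23.5 FPKM in P, against 6.06, 3.63, 3.71, 0.848, 0.798 and 15.9 FPKM in A (1.87 ± 0.26, adjusted p = 8.42e-05). A of embryo 6 stood above the other A samples for both factors and above P of embryo 4, so the groups overlapped, and within that embryo the differences were smallest, at 1.43 for Etv4 and 0.62 for Etv5. The ratio of P to A was 6.32 for Etv4 and 2.70 for Etv5. Spred1 had 3.39, 4.24, 5.47 and 9.34 FPKM in P, against 1.79, 2.44, 1.19, 0.124, 1.51 and 1.76 FPKM in A, without overlap (1.51 ± 0.16, adjusted p = 3.84e-06).

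Spry1 was at 1.46, 0.512, 0.598 and 0.981 FPKM in P, against 1.80, 1.82, 1.20, 0.0606, 0.385 and 2.44 FPKM in A. The groups overlapped throughout, and the difference of 0.07 ± 0.19 did not pass (adjusted p = 0.85). Its sign was positive in 3 of 4 embryos at a level near 1 FPKM, where values on the log2(FPKM + 1) scale move little.

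**Figure D2:**
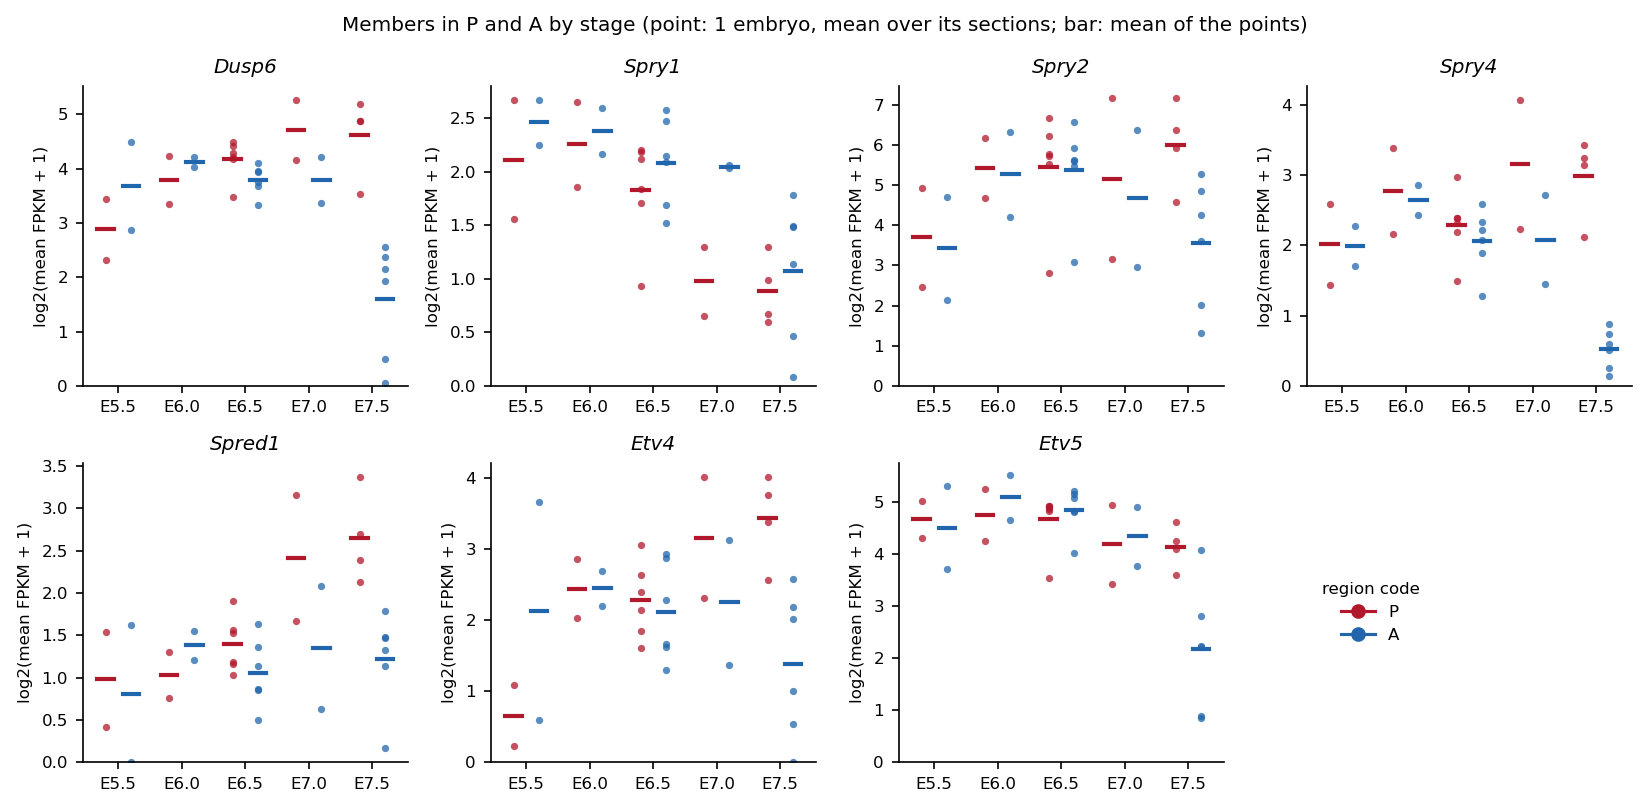
Level of each gene in P (red) and A (blue) by stage, as log2(mean FPKM + 1) with 1 point per embryo. P and A overlap from E5.5 to E6.5, and at E7.5 Dusp6, Spry4 and Spred1 have every P point above every A point.

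The change between stages was itself tested for the difference of P and A. From E6.5 to E7.5 the difference grew for 6 of 7 genes, where 4.03% of all genes changed and 3.09% in that direction. The change was 3.06 ± 0.24 for Dusp6 (adjusted p = 3.65e-07), 2.76 ± 0.22 for Spry2 (4.44e-07), 2.12 ± 0.27 for Spry4 (8.89e-05) and 2.09 ± 0.25 for Etv4 (4.15e-05). For Etv5 it was 2.07 ± 0.34 (adjusted p = 0.0011) and for Spred1 1.23 ± 0.21 (adjusted p = 0.0016), while that of Spry1, 0.39 ± 0.24, did not pass (adjusted p = 0.44). The summed level of 12 streak markers moved with these differences: its median was 1029 FPKM in P and 9.94 FPKM in A at E7.5, and 324 FPKM in P and 47.2 FPKM in A at E6.5. None of the 12 was at 0 throughout either region, and their part in the result was not tested.

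**Figure D3:**
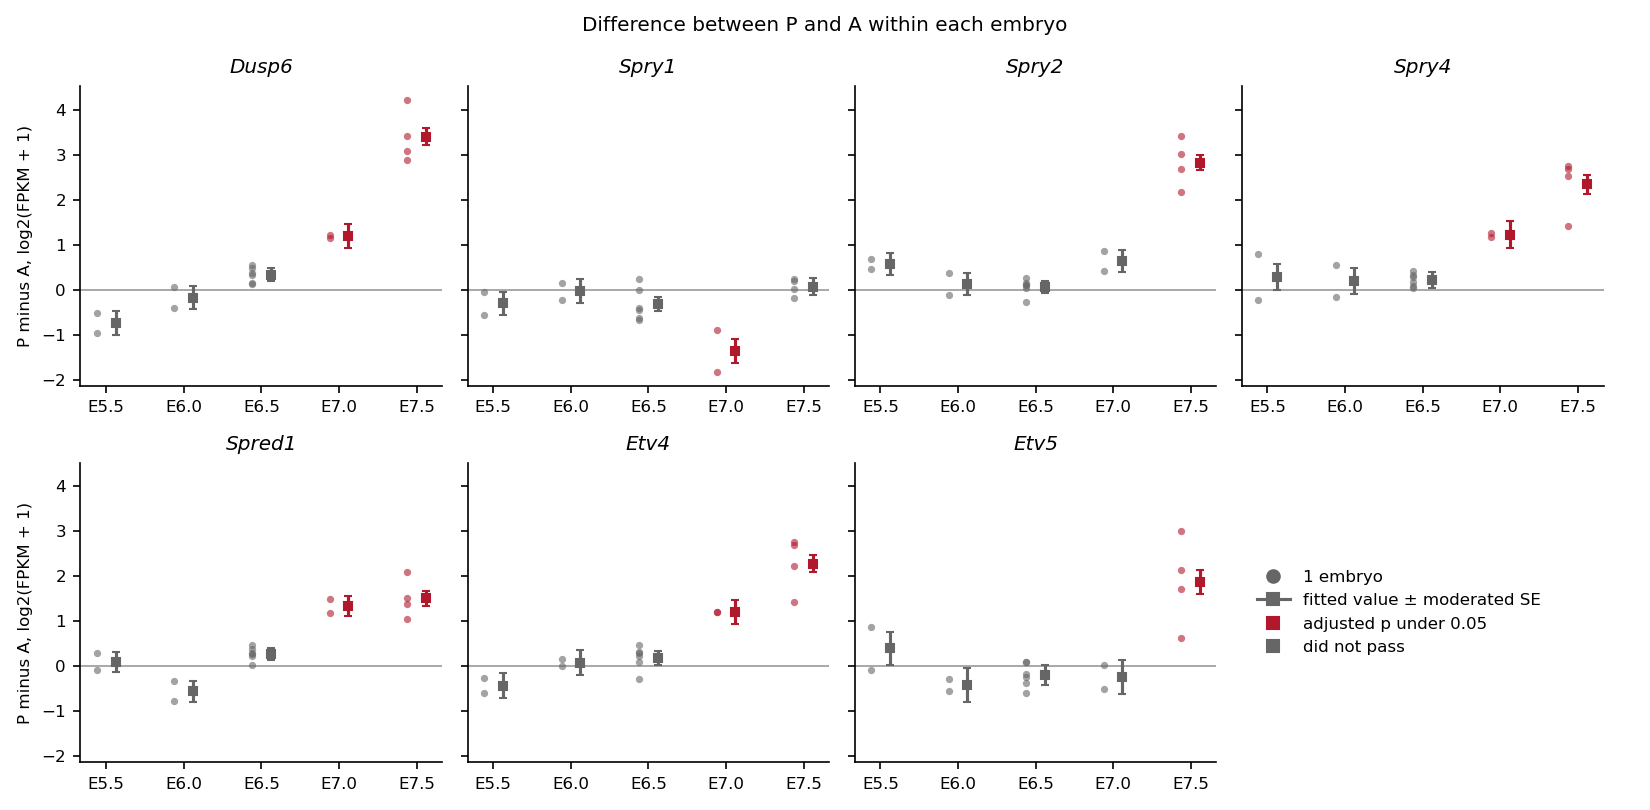
Difference of P minus A in log2(FPKM + 1) for each gene and stage, with 1 point per embryo and the fitted value ± moderated standard error; red marks an adjusted p under 0.05. Dusp6 reaches 3.40 and Spry2 2.82 at E7.5, whereas all 7 values of E6.5 lie between -0.32 and 0.34.

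Each region was then followed by itself from E6.5 to E7.5, on libraries rescaled to an equal FPKM sum. In A, 4 of 7 genes were lower at E7.5 than at E6.5, where 2.07% of all genes changed and 0.683% were lower. In FPKM as deposited, without rescaling, Dusp6 in A had a lowest, median and highest embryo of 0.0443, 3.13 and 4.88 at E7.5. At E6.5 these were 9.04, 13.4 and 16.3 FPKM, without overlap. On the rescaled libraries Dusp6 fell by 2.91 ± 0.36 (adjusted p = 5.57e-05, n = 6 embryos each, limma), and Etv5 fell by 2.91 ± 0.40 (adjusted p = 0.00016) and Spry4 by 1.95 ± 0.28 (adjusted p = 0.00021).

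Spry1 in A fell by 1.37 ± 0.34 (adjusted p = 0.039), a call that was lost under 15 of the alternatives. Spry2 (-1.85 ± 0.54, adjusted p = 0.09) and Etv4 (-1.18 ± 0.49, adjusted p = 0.30) did not pass, and Spred1 was at 0.24 ± 0.36. The median of the 7 genes was -1.85, beside 0.11 over all genes. In P, 2 of 7 genes were higher at E7.5 than at E6.5, where 8.71% of all genes changed: Spred1 (1.83 ± 0.33, adjusted p = 0.00087) and Etv4 (1.59 ± 0.36, adjusted p = 0.0061). Dusp6 in P (0.86 ± 0.33, adjusted p = 0.12), Spry4 (1.10 ± 0.36, adjusted p = 0.057) and Spry1 (-0.88 ± 0.30, adjusted p = 0.072) did not pass. When the embryos were split by the number of genes at 1 FPKM or more, those of lower detection kept 0 of the 4 calls in A and 0 of the 2 in P. At E7.5 these were embryos 4 to 6, whose A libraries cover only sections 3, 6 and 9. Embryos 5 and 6 (medians of 9183.5 and 9244 genes) lay close to embryo 3 of the other set (9311). Only embryo 4 (6555) was far lower. Detection and the choice of sections cannot be told apart there. The set of higher detection had P of E7.5 from embryo 3 only, so it could not test the calls in P.

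The earlier step, E6.5 against E5.5, had only 2 embryos at E5.5 and a broad shift of all genes (median 0.47 in P and 0.59 in A). In P, Etv4 (2.01 ± 0.45, adjusted p = 0.0024), Dusp6 (1.82 ± 0.42, adjusted p = 0.0030) and Spred1 (1.24 ± 0.42, adjusted p = 0.032) were higher at E6.5, 3 of 7 genes where 27.6% of all genes passed. In A, Spry2 alone passed (2.12 ± 0.77, adjusted p = 0.042), 1 of 7 where 30.9% did. With 7 genes, neither count stands apart from that background.

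Embryo 3 of E7.5 had been cut into 6 positions around the ectoderm, with the left and right sides each split into positions 1 and 2, which gave a ring of values over sections 3 to 9. The labels do not say which position lies nearer to P, and a single embryo allows no test over embryos. Dusp6 averaged 30.5 FPKM in P over the 7 sections, 3.77 in L2, 4.10 in R2, 1.73 in L1, 0.528 in R1 and 0.919 FPKM in A. P was alone at its high level, with a lowest section of 13.3 FPKM that was above the highest section of any other position (10.8 FPKM in R2).

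Spry2 and the ETS factors kept a larger part of their P level in L2 and R2 than Dusp6 did. Spry2 averaged 157 FPKM in P, 60.2 in L2, 41.5 in R2, 14.1 in L1, 8.04 in R1 and 13.4 FPKM in A. Etv4 averaged 13.7 FPKM in P, 8.56 in L2, 4.69 in R2, 1.13 in L1, 0.333 in R1 and 0.566 FPKM in A. The levels in L2 and R2 were thus intermediate, and in every section position 2 exceeded position 1 on both sides for Etv4 and Etv5. For Spry2 it did so in 7 of 7 sections on the left and 6 of 7 on the right, with mean differences of 2.05 and 1.96 on the log2 scale.

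The other members were less graded or at lower levels, although Spry4 and Spred1 were also intermediate in L2 and R2. Dusp6 was higher in position 2 in 5 of 7 sections on the left (0.80) and 6 of 7 on the right (1.36), and Spry4 in 6 of 7 and 7 of 7. Spry4 averaged 8.63 FPKM in P, 2.27 in L2, 2.04 in R2, 0.519 in L1, 0.255 in R1 and 0.286 FPKM in A. Spred1 averaged 3.80 FPKM in P, 2.33 in L2, 1.75 in R2, 0.996 in L1, 0.838 in R1 and 0.847 FPKM in A. It was higher in position 2 in 4 of 7 sections on the left and 6 of 7 on the right. Spry1 had no such order, with its highest mean in R1 (1.80 FPKM) and its lowest in L1 (0.166 FPKM). The streak markers, summed over 12 genes, had medians of 238 FPKM in L2, 141 in R2, 29.0 in L1 and 9.14 FPKM in R1, and their part in the pattern was not tested.

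**Figure D4:**
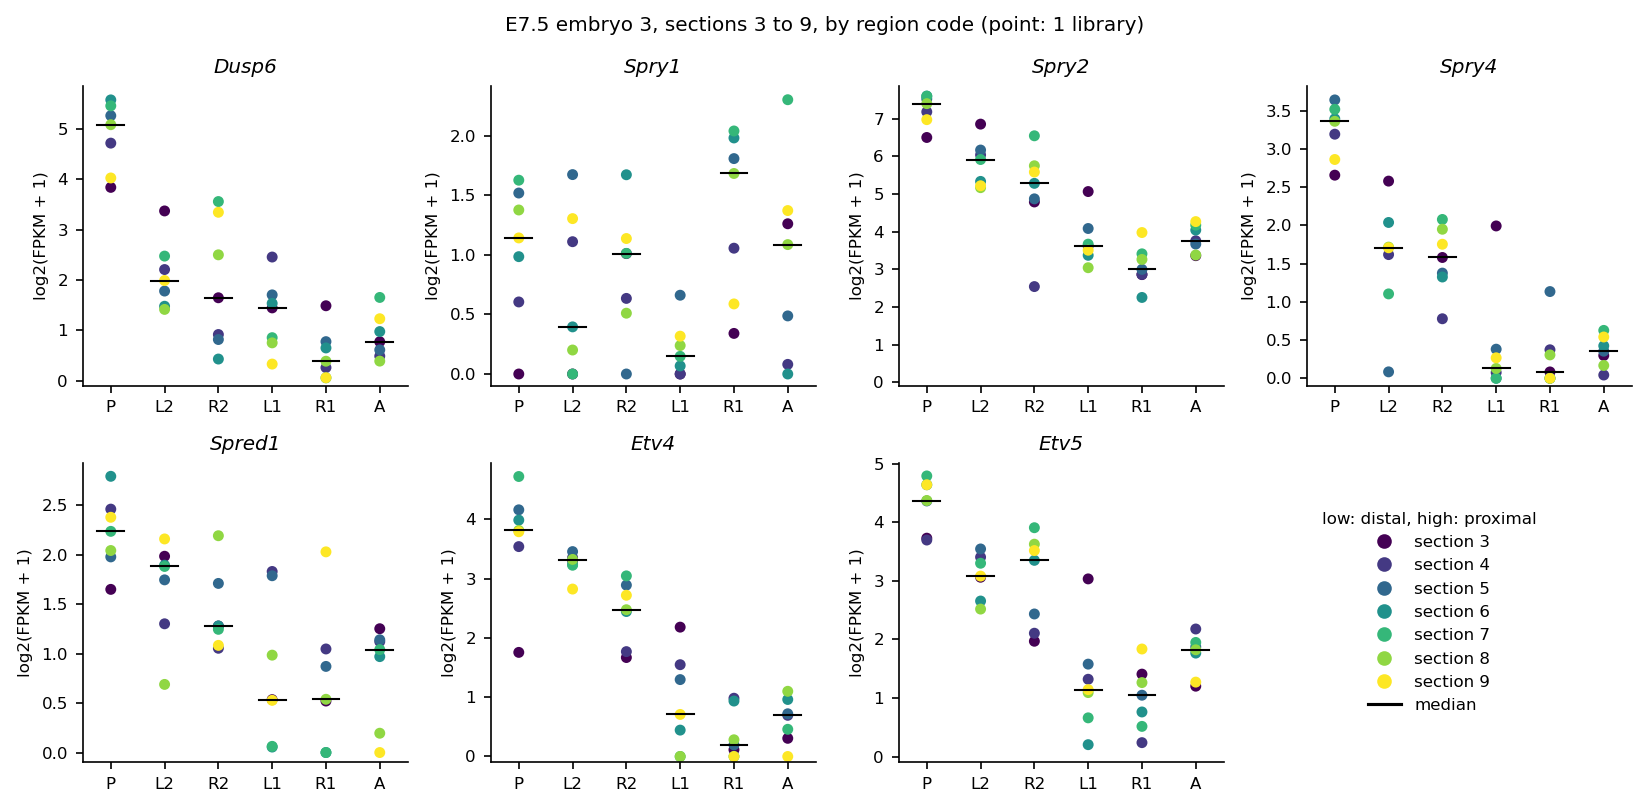
Level of each gene around embryo 3 of E7.5 as log2(FPKM + 1), with 1 point per section from 3 to 9 and positions ordered P, L2, R2, L1, R1 and A. Dusp6 has its high points in P, and Spry2, Spry4, Etv4, Etv5 and Spred1 are intermediate in L2 and R2.

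Along the distal to proximal axis of A at E7.5, the most distal section had the highest Dusp6, Spry2 and Spry4 in embryos 1, 2 and 3. Section 1 of A in embryos 1, 2 and 3 had 23.1, 19.7 and 17.0 FPKM of Dusp6, against medians of 1.43, 1.37 and 0.970 FPKM over the other sections of the same embryos. Etv5 had 22.0, 21.3 and 8.42 FPKM there, against medians of 2.79, 1.15 and 2.66 FPKM elsewhere. In embryo 3, however, section 2 was above section 1 for Etv5 (9.30 against 8.42 FPKM). The same held there for Etv4 (3.57 against 2.46 FPKM) and Spred1 (2.93 against 1.87 FPKM). Spry4 had 4.20, 2.21 and 4.51 FPKM in section 1, against 0, 0.0668 and 0.342 FPKM elsewhere. The same 3 libraries held T at 1216, 237.8 and 299.2 FPKM, against 5.74, 1.68 and 2.47 FPKM in the other sections, and Mixl1 at 16.7, 1.41 and 17.3 FPKM, against 0, 0.0271 and 0.421 FPKM. T and 6 of the feedback genes were thus above the median of the other sections there. Mixl1 stayed below its 49.3 to 158.8 FPKM in P of E7.5. Spry1 was not high in section 1 of embryos 1 and 2, at 0.755 and 0.594 FPKM against 2.37 and 1.75 FPKM elsewhere. The part of other cells in these values was not tested. Embryos 4, 5 and 6 had A libraries only of sections 3, 6 and 9 and could not show this end.

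Slopes of log2(FPKM + 1) on position, scaled from 0 at the distal to 1 at the proximal end, were fitted per embryo. In A of E7.5, 0 of 7 genes passed, where 0.753% of all genes did, although 6 had an unadjusted p under 0.05. Dusp6 had a slope of -1.62 ± 0.42 (adjusted p = 0.080), negative in 6 of 6 embryos. In embryos 4 and 5, however, it was at 0.949 FPKM or less in every A section, so those signs rest on very low values. The slopes of embryos 4 to 6 start at section 3. Etv4 (-1.44 ± 0.40, adjusted p = 0.10) and Etv5 (-1.37 ± 0.39, adjusted p = 0.11) had slopes of similar size. T in A had a slope of -4.69 ± 0.99 (adjusted p = 0.033). In P of E7.5 0 of 7 genes were past the threshold beside 1.03% of all genes, and 0 at an unadjusted p under 0.05. Dusp6 in P averaged between 18.1 FPKM in section 9 and 31.6 FPKM in section 2.

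In P of E6.5 Dusp6 rose towards the proximal end, by 1.15 ± 0.27 (adjusted p = 0.030) and in 6 of 6 embryos, 1 of 7 genes where 1.53% of all genes passed. Its means were 12.2, 13.5, 14.4 and 14.1 FPKM in sections 2 to 5 and 27.7, 22.7 and 18.4 FPKM in sections 6 to 8. The step lay between sections 5 and 6, and the mean of section 8 rests on 2 embryos. Streak markers rose along the same axis, 9 of 12 genes with a median slope of 3.34, with T at 6.54 and Mixl1 at 6.86, and their part was not tested. This call was lost under 11 alternatives, among them the embryos of higher and of lower detection by themselves. In A of E6.5, 0 of 7 genes passed, 0 at an unadjusted p under 0.05, and 0.0342% of all genes did.

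**Figure D5:**
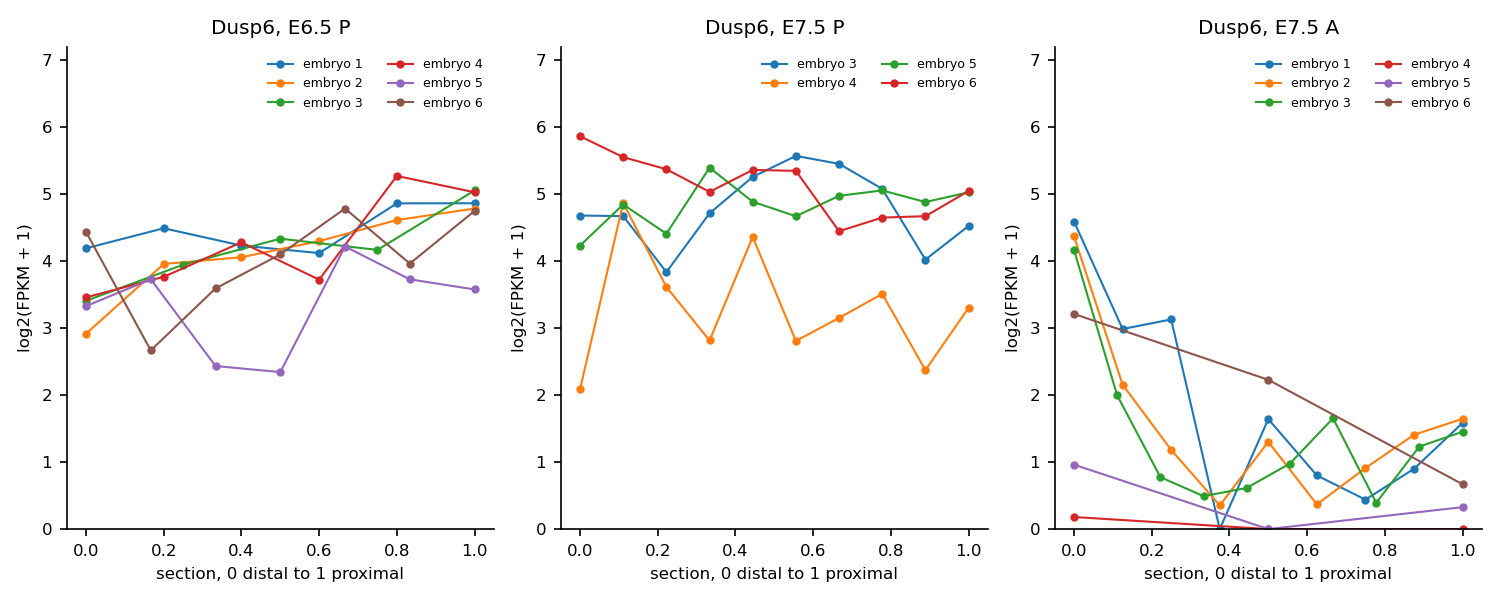
Dusp6 as log2(FPKM + 1) along P of E6.5, P of E7.5 and A of E7.5, with 1 line per embryo and section position scaled from 0 (most distal) to 1 (most proximal). In A the most distal point stands out in embryos 1 to 3 (17.0 to 23.1 FPKM), and P of E6.5 slopes upwards by 1.15 on average.

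Of the other slopes, 3 passed. They were Dusp6 in P of E5.5 (2.32 ± 0.47, adjusted p = 0.0033, 11.3% of all genes called), Spry2 in A of E5.5 (3.12 ± 0.76, adjusted p = 0.014, 9.34% called) and Etv4 in endoderm of E6.5 (2.57 ± 0.66, adjusted p = 0.0052, 7.30% called). Each was positive in 2 of 2 embryos. All were lost when the stage was fitted by itself. In mesoderm 0 of 7 genes passed at E7.0 (2 at an unadjusted p under 0.05) and at E7.5 (1 such gene), where 1.77% and 1.67% of all genes did. The same count of 0 of 7 was found for P at E6.0 and E7.0 (0.396% and 1.68% of all genes), for A at E6.0 and E7.0 (0.0171% and 0.00856%) and for endoderm at E7.0 and E7.5 (5.56% and 6.98%). Of these, Etv4 in A of E7.0 had an unadjusted p under 0.05.

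Mesoderm had less of most feedback genes than the P tissue next to it. At E7.5 (2 embryos, the mean of MP and MA in 18 sections) 6 of 7 genes were lower than in P, where 26.3% of all genes passed and 23.8% were lower. Dusp6 averaged 7.69 ± 0.497 FPKM in mesoderm and 31.4 ± 2.71 FPKM in P (SD, n = 2), a difference of -2.20 ± 0.15 (limma adjusted p = 0.00058). Spry2 averaged 18.6 FPKM in mesoderm and 74.2 FPKM in P (-1.96 ± 0.19, adjusted p = 0.0021), and Spry4 1.89 FPKM in mesoderm and 8.78 FPKM in P (-1.93 ± 0.16, adjusted p = 0.0011). The embryos did not overlap for any of these. With 2 embryos per stage, the standard errors of mesoderm minus P rest mostly on the spread of other genes. Its p-values therefore carry little information from these embryos.

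Etv4 (-1.70 ± 0.21, adjusted p = 0.0045), Etv5 (-1.71 ± 0.24, adjusted p = 0.0067) and Spred1 (-0.83 ± 0.20, adjusted p = 0.027) were lower too. Spry1, at 0.918 FPKM in mesoderm and 0.828 FPKM in P, did not pass (0.06 ± 0.15, adjusted p = 0.78). The median of the 7 was -1.71, beside -0.28 over all genes. At E7.0 (2 embryos, 20 sections) 2 of 7 were lower, where 14.0% of all genes passed. Dusp6 had 6.90 and 17.0 FPKM in M of the 2 embryos, averaging 11.9 FPKM against 26.9 FPKM in P (-1.22 ± 0.15, adjusted p = 0.011). Spry2 had 3.60 and 43.3 FPKM in M, averaging 23.4 FPKM against 78.3 FPKM in P (-1.51 ± 0.19, adjusted p = 0.012). Averaged over both stages, 6 of 7 genes were lower in mesoderm, Spry1 being the exception, where 43.7% of all genes passed. Streak markers moved with this comparison: 9 of 12 were lower in mesoderm than in P at E7.5 (median -2.63) and 7 of 12 at E7.0 (median -0.99). Their summed level at E7.5 was 133 to 580 FPKM in MP and 11.7 to 193 FPKM in MA, against 315 to 1980 FPKM in P. Markers of decidua and blood, 8 genes in the tables, ran the other way, with medians of 507 FPKM in MP and 622 FPKM in MA against 90.5 FPKM in P. The part of either list was not tested.

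Within the mesoderm of E7.5 the posterior side had more of 5 genes. Dusp6 was at 12.5 and 10.2 FPKM in MP of embryos 5 and 6, against 3.61 and 4.52 FPKM in MA, with no overlap (1.21 ± 0.24, adjusted p = 2.68e-05). Etv5 was at 6.55 and 13.2 FPKM in MP, against 0.896 and 10.0 FPKM in MA (1.26 ± 0.23, adjusted p = 8.09e-06), and Etv4 at 2.69 and 8.94 FPKM in MP, against 0.703 and 4.06 FPKM in MA (0.97 ± 0.22, adjusted p = 0.00058). MP exceeded MA in 2 of 2 embryos, but for the ETS factors the embryos overlapped. Spry2 (0.85 ± 0.24, adjusted p = 0.013) and Spry4 (0.84 ± 0.21, adjusted p = 0.0038) completed the 5 of 6 genes tested that passed, where 3.44% of all genes did and 1.63% were higher. Spred1 (0.48 ± 0.22, adjusted p = 0.45) did not pass, and Spry1 had too low a level to be tested.

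With 2 embryos the standard errors in this comparison rest almost wholly on the spread of other genes, so the p-values carry little information from these embryos, and 2 of the 5 calls held when libraries were rescaled to an equal sum. The streak markers summed to a median of 242 FPKM in MP (132.9 to 580) and 47.9 FPKM in MA (11.7 to 193), and their part was not tested.

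Endoderm had less Dusp6, Spry2 and Etv5 than epiblast at the earlier stages. At E6.5 (2 embryos, 14 sections) 4 of 7 genes were lower, where 65.8% of all genes passed and 62.0% were lower, and the median of all genes was -0.86. Dusp6 averaged 2.91 FPKM in endoderm and 12.7 FPKM in epiblast (-2.20 ± 0.27, adjusted p = 3.99e-07), Spry2 4.18 FPKM in endoderm and 28.1 FPKM in epiblast (-2.56 ± 0.63, adjusted p = 0.0078), and Etv5 7.66 FPKM in endoderm and 21.9 FPKM in epiblast (-1.73 ± 0.29, adjusted p = 1.81e-05). The difference of Etv4 (-0.71 ± 0.29, adjusted p = 0.034) was smaller than that median. With 2 embryos per stage, the standard errors of this comparison rest mostly on the spread of other genes. Its p-values therefore carry little information from these embryos. At E7.0 the same 3 genes passed, 3 of 7 where 35.6% of all genes did: Dusp6 at -1.65 ± 0.27, Spry2 at -2.11 ± 0.63 and Etv5 at -1.64 ± 0.29, beside a median of -0.36 over all genes. With 7 genes, the counts at E6.5 and E7.0 do not stand apart from the shares over all genes. Markers of decidua and blood (8 genes in the tables) were higher in endoderm, 4 of 6 tested at E6.5 and 6 of 6 at E7.0. Their summed level at E7.0 was 761 to 50290 FPKM in EA and 667 to 34115 FPKM in EP, against 9.54 to 487 FPKM in A and 5.08 to 563 FPKM in P. At E6.5 it had medians of 165 FPKM in EA and 134 FPKM in EP, against 9.86 FPKM in A and 9.44 FPKM in P. Markers of trophoblast and extraembryonic ectoderm (10 genes) had medians at E7.0 of 155 FPKM in EA and 849 FPKM in EP, against 1.69 FPKM in A and 4.15 FPKM in P, and at E6.5 of 25.2 FPKM in EA and 24.2 FPKM in EP, against 4.14 FPKM in A and 4.52 FPKM in P. None of the decidua and blood genes was at 0 throughout EA or EP, and the part of these lists in the endoderm results was not tested.

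At E7.5, where the decidua and blood sum again had medians of 4305 FPKM in EA and 3460 FPKM in EP against 48.7 FPKM in A and 90.5 FPKM in P, only Spry1 passed, and in the opposite direction, 1 of 7 genes where 19.1% of all genes passed. Spry1 averaged 3.39 FPKM in endoderm and 1.31 FPKM in epiblast (1.07 ± 0.29, adjusted p = 0.011, higher in 2 of 2 embryos). Without embryo 5 the call was lost. Averaged over the 3 stages, 5 of 7 genes were lower in endoderm than in epiblast, all but Spry1 and Spry4, where 68.9% of all genes passed. Spry1 was also higher in endoderm than in mesoderm at E7.5, with 0.918 FPKM in mesoderm and 3.15 FPKM in endoderm (-1.05 ± 0.17 for mesoderm minus endoderm, adjusted p = 0.010), 1 of 7 genes where 15.1% of all genes passed. At E7.0 mesoderm had more Dusp6 (1.12 ± 0.23, adjusted p = 0.020) and Etv5 (0.87 ± 0.23, adjusted p = 0.041) than endoderm, 2 of 7 where 19.6% did. Averaged over both stages, Dusp6 (0.60 ± 0.16, adjusted p = 0.026) and Spred1 (0.50 ± 0.13, adjusted p = 0.021) were higher and Spry1 (-0.75 ± 0.12, adjusted p = 0.0044) lower in mesoderm than in endoderm, 3 of 7 where 39.4% passed.

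Between posterior and anterior endoderm no member passed at any stage. At E7.5 all 7 genes were higher in EP in 2 of 2 embryos, and 4 had an unadjusted p under 0.05, but 0 of 7 passed where 0.266% of all genes did. Dusp6 was at 10.3 and 13.4 FPKM in EP, against 1.96 and 4.81 FPKM in EA, with no overlap (1.65 ± 0.42, adjusted p = 0.25). Spry2 was at 17.1 and 19.5 FPKM in EP, against 6.06 and 8.91 FPKM in EA (1.16 ± 0.30, adjusted p = 0.25). At E7.0 EP of embryo 2 (16.4 FPKM of Dusp6) was apart from EP of embryo 1 (3.15 FPKM), and 0 of 7 genes passed beside 0.296% of all genes, 0 at an unadjusted p under 0.05. At E6.5 0 of 7 passed beside 0.217%, with 1 at an unadjusted p under 0.05. The streak markers summed to a median of 138 FPKM in EP and 48.3 FPKM in EA at E7.5, and T was higher in EP (2.34 ± 0.37, adjusted p = 0.025); their part was not tested.

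The other genes of the pathway were followed in lists of ligands, receptors, cascade kinases and further feedback genes or targets. For P minus A at E7.5, 5 of 8 ligand genes tested were higher and 1 lower (median 2.71), led by Fgf8 (4.33 ± 0.34), Fgf15 (3.63 ± 0.33), Fgf3 (2.92 ± 0.23) and Fgf17 (2.86 ± 0.23). Among the 5 receptor and binding protein genes, Fgfr2 was lower (-1.57 ± 0.21) and Fgfbp1, a carrier of secreted FGF, higher (0.92 ± 0.25), with a median of 0.08. In the Ras-ERK cascade 0 of 17 genes passed in the limma fit, 2 at an unadjusted p under 0.05 (median 0.21). Of 21 further feedback genes and targets, 9 were higher and 1 lower (median 0.42), led by Epha2 (2.02 ± 0.22), Epha4 (1.59 ± 0.18), Etv1, the third factor of the Etv4 family (1.47 ± 0.22), and Il17rd, which encodes the FGF inhibitor Sef (1.34 ± 0.15). The medians stand beside 0.15 for all genes, of which 13.9% passed and 10.4% were higher.

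At E5.5, 3 of 8 ligand genes were higher in P, Fgf15 (2.12 ± 0.47), Fgf5 (1.33 ± 0.27) and Fgf3 (1.01 ± 0.32), and at E6.0 0 of 8 passed in the limma fit, 0 at an unadjusted p under 0.05. At E6.5, when none of the 7 members passed, 2 of 8 ligand genes were higher in P, Fgf8 (2.42 ± 0.28, adjusted p = 0.00024) and Fgf17 (1.20 ± 0.18, adjusted p = 0.0026), as were Epha2 (1.10 ± 0.18) and Il17rd (0.66 ± 0.12) of the 21 further targets. Fgf8 averaged 114 ± 42.2 FPKM in P and 24.8 ± 15.9 FPKM in A of E6.5 (SD, n = 6 embryos each). At E7.0 3 of 8 ligand genes were higher in P, Fgf8 (3.62 ± 0.48), Fgf3 (3.05 ± 0.32) and Fgf4 (2.22 ± 0.45), and 1 of 5 receptor genes, Fgfbp3, was lower (-1.27 ± 0.28). Epha2 (2.31 ± 0.31) and Epha4 (1.48 ± 0.25) were higher and Dusp7 (-0.82 ± 0.20), another ERK phosphatase, lower. In the cascade 0 of 17 genes passed at E6.5 (0 at an unadjusted p under 0.05) and at E7.0 (1 such gene). Of all genes 15.1% passed at E5.5, 0% at E6.0, 0.726% at E6.5 and 2.92% at E7.0.

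In A between E6.5 and E7.5 some ligand genes fell and some receptor genes rose. Of 9 ligand genes 4 were lower at E7.5 and 0 higher: Fgf8 (-3.49 ± 0.48), Fgf5 (-2.48 ± 0.35), Fgf15 (-2.08 ± 0.46) and Fgf4 (-1.60 ± 0.34). Of 7 receptor genes 3 were higher: Fgfr2 (2.75 ± 0.29), Fgfr1 (2.09 ± 0.33) and Fgfr3 (0.98 ± 0.22). Fgfr1 averaged 25.4 FPKM in A of E7.5 and 6.48 FPKM in A of E6.5, and Fgfr2 5.97 FPKM in A of E7.5 and 0.409 FPKM in A of E6.5. Of 20 further targets 2 were higher and 3 lower, with Epha2 (-1.73 ± 0.31), Myc (-1.69 ± 0.32) and Il17rd (-1.48 ± 0.25) lower and Epha4 (1.47 ± 0.33) higher. In the cascade 0 of 18 genes passed, 0 of them at an unadjusted p under 0.05. Of all genes 2.07% changed in this step.

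In mesoderm minus P at E7.5, 4 of 7 ligand genes were lower and 1 higher, with Fgf8 at -2.67 ± 0.26, Fgf17 at -2.66 ± 0.26, Fgf15 at -2.21 ± 0.41 and Fgf4 at -2.09 ± 0.25. Fgfr2 (1.42 ± 0.16) and Fgfr3 (1.27 ± 0.17) were higher in mesoderm, 2 of 5 receptor genes. Dusp9 (1.80 ± 0.13), an ERK phosphatase like Dusp6, was higher in mesoderm where Dusp6 was lower. Epha2 (-1.84 ± 0.16), Il17rd (-1.03 ± 0.15) and Etv1 were lower, so that 2 of 16 further targets were higher and 3 lower. In the cascade 2 of 17 genes were lower, Shc1 (-0.58 ± 0.15) among them. Of all genes 26.3% passed and 23.8% were lower, and the counts of cascade genes and further targets do not stand apart from that background.

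Over 25 stage and region groups, the members' patterns were alike to different degrees, which is a description only, since the groups share embryos, libraries and depth. Dusp6 and Spry2 had a Pearson r of 0.816 in mean log2(FPKM + 1), Spry2 and Etv5 of 0.761, and Etv4 and Spred1 of 0.663. Spry1 had r of 0.545 to Etv5, 0.462 to Spry4, 0.308 to Spry2, 0.252 to Dusp6, -0.175 to Etv4 and -0.363 to Spred1. Among 9188 genes, those most like Dusp6 were Psors1c2 (0.847), Spry2 (0.816) and Ypel3 (0.808). The genes most like Spry4 were Il17rd (0.785), Sgk1 (0.715) and Dusp6 (0.713), and those most like Spred1 were Rab8b (0.919), Tnfrsf1a (0.908) and T (0.903).

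The nearest genes to Etv4 were Tcf7 (0.849), Cachd1 (0.817) and Zyx (0.801), and genes near Etv5 included Sema6a (0.871) and Skil (0.835). Spry2 was most like Tor3a (0.922), Wipi2 (0.909) and Parp1 (0.907), and genes near Spry1 included Stx3 (0.857) and Actn4 (0.855). No Sprouty gene had another Sprouty gene among its 3 nearest.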

How the data were processed

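Deposited values were FPKM per gene and library. Per the submitters' processing notes, TopHat2 2.0.8b, Cufflinks 2.1.1 and the mm10 build were used; per the labels' protocols, RNA was extracted from laser-cut pieces and libraries were made with a Nextera XT kit. No read counts were used here, so read depth is unknown and no counting interval is given. Sums of FPKM ranged from 53064 to 1806706 per library.

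Samples were tied to columns by stage, embryo, section and region code; 113 samples had no column that their labels matched, and 111 columns were not used. Those of E7.5 embryos 1 and 2 include all P columns, since the labels use another letter. The file name of E6.5 embryo 6 gives E6.0, and its stage was taken from the sample labels. No pair of libraries had identical values.

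From there, values were taken as log2(FPKM + 1). Regions were compared within each embryo over shared sections, and embryos were the replicates. limma 3.58.1 (R 4.3.3, empirical Bayes with trend and robust options, Benjamini-Hochberg over all genes tested, threshold 0.05) was run on genes with a mean of at least 1 FPKM in at least 1 stage. Slopes needed 3 sections. Comparisons between stages used libraries rescaled to a sum of 1000000. Pairing within embryos comes from the labels; deviations of A and P of the same embryo correlated at 0.671 to 0.893 at E6.5 and 0.472 to 0.768 at E7.5. The scripts were tested on simulated data. Differences are first minus second group as named, with moderated standard errors. In comparisons where every stage held 2 embryos, these errors rest mostly on the spread of other genes. Fold changes of low genes are understated by the pseudocount. Tables used Python 3.11.15, numpy 2.4.6, pandas 2.3.3 and matplotlib 3.10.9.

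The 7 genes, the pathway and marker lists and the tests were chosen with earlier results of these data known. Named genes are the 7 members, up to 4 genes per list past the threshold with the smallest p, and for each member the 3 genes with the highest Pearson r over groups; some of these are not reported here. Alternatives covered the pseudocount, the filter, the scaling, single embryos left out, the embryos split by detection, single stages and unpaired fits.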

Additional observations from a re-analysis of the deposited data

Results flagged for a closer look

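Among 42 sets of 4 or 6 embryos looked at, 2 held an embryo far from the rest by Dixon's 95% criterion, which by chance marks about 1 set in 20. For Spry4, P minus A of E7.5 was 1.42 in embryo 4, against 2.53 to 2.75 in the other 3 embryos; it was still positive, and embryo 4 had the lowest detection of that stage (median 6555 genes at 1 FPKM or more). For Spry1, the slope in A of E6.5 was -1.66 in embryo 1, against -0.11 to 0.72 in the other 5.

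The difference between P and A changed between E6.5 and E7.5 by a test of the change itself for 6 genes, by 3.06 for Dusp6, 2.76 for Spry2, 2.12 for Spry4, 2.09 for Etv4, 2.07 for Etv5 and 1.23 for Spred1 on the log2 scale, with 4 embryos at E7.5 and 6 at E6.5.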

How the results depend on the processing

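Over 272 single results and 5145 alternative values, 0 reversed a direction of a called value, and 28 of 69 called results were lost in no alternative other than the unpaired fit. These include the E7.5 calls of P minus A for Dusp6, Spry2, Spry4, Etv4 and Etv5. That of Spred1 did not hold in the embryos of higher detection by themselves, where embryo 3 alone had P and A at E7.5. Counts below are of gene and stage pairs past the threshold, and the cause of each shift was not tested.

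P minus A had 11 calls, 7 with a pseudocount of 0.1 and 6 to 12 with an embryo left out. For E7.0 by itself, 5 calls became 1. No count is given for the embryos of higher detection, since only embryo 3 of them had both regions at E7.5. Endoderm minus epiblast had 8, 5 with a pseudocount of 5 or no filter, and 5 to 9 with an embryo left out. EP minus EA had 0, and 0 to 1; mesoderm minus P 8, and 7 to 8. Mesoderm minus endoderm had 3, 1 with no filter, 6 with equal sums, 5 with equal medians, and 2 to 8. MP minus MA had 5, 2 with equal sums, and no value with an embryo left out.

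Slope P had 2 calls, 1 with no filter, equal sums, equal medians or without the most proximal section, and 1 to 5 with an embryo left out; E5.5 by itself gave 0 in place of 1, E6.5 by itself 2 in place of 1, and each set of embryos split by detection 0. Slope A had 1, 2 with equal sums, equal medians or without the most proximal section, and 1 to 4; E5.5 by itself gave 0 in place of 1, E7.5 by itself 2 in place of 0, and the embryos of higher detection 2 in place of 0. Slope mesoderm had 0, and 0 to 2; E7.5 by itself gave 1. Slope endoderm had 1, 0 with no filter, without the most proximal section or at E6.5 by itself, and 0 to 2. A over stages had 5, 3 with a pseudocount of 5, no filter or FPKM as deposited, 9 with equal medians, and 3 to 5; its 4 calls for E7.5 minus E6.5 became 0 with the embryos of lower detection. P over stages had 5, and 4 to 6. Its 2 calls for that step became 0 with the embryos of lower detection, and the other set had P of E7.5 from embryo 3 only.

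Without the replicate block (unpaired embryos), P minus A kept 5 calls in number, endoderm minus epiblast had 1, and mesoderm minus P, mesoderm minus endoderm, MP minus MA and EP minus EA had 0. Leaving out the 4 libraries led by a small RNA gene, chosen after seeing the data, gave 4 calls for mesoderm minus endoderm and moved no other count.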
